A study of Danio rerio with 16 samples.

Results

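The baseline transcriptome of the zebrafish larva at 5 days after fertilisation was read from the 4 solvent control libraries of a study of 16. The 4 were chosen by their labels as DMSO treated, whatever their counts. Each is total RNA from whole larvae kept in 0.1% DMSO from hour 4 to hour 120. The other 12 libraries come from larvae kept over the same hours in PCB153, a polychlorinated biphenyl, at 0.1, 1 or 10 µM (4 libraries each). They enter only where stated and no level is compared with them. The labels describe the 4 control libraries as separate replicates but do not say which strain or clutch they came from, how many larvae were pooled or whether they were sequenced together. The p-values below therefore measure the spread between these 4 samples, which may be partly technical.

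At this age the larva swims, the mouth and gut have opened and most of the yolk has been used. The trunk is largely fast skeletal muscle, where parvalbumins buffer calcium. The liver exports lipoproteins, the acinar cells of the pancreas fill with digestive enzyme precursors and the eye is functional, with cones ahead of rods. An ancestor of the bony fishes called teleosts duplicated its genome, so many genes that mammals hold once are present as a pair of copies, and the copies may share the work or leave it to one of them.

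The 4 libraries held 13790767, 14541255, 14676399 and 15420019 reads counted in genes (replicates 1 to 4, the order used throughout). Of 32105 genes, 23741 had a count in all 4 libraries and 4877 had none in any. A mean of at least 1 CPM (counts per 1000000 reads in genes) was reached by 20337 genes, at least 100 CPM by 1482 and at least 1000 CPM by 79. Reads in no counted gene feature made up 31.9, 31.4, 34.0 and 35.5% of the uniquely aligned reads, so replicates 3 and 4 were above replicates 1 and 2. No 2 libraries agreed within sampling noise. The chi-square per degree of freedom over 20365 genes was 3.45 between replicates 1 and 2 and 3.96 between replicates 3 and 4, and lay between 4.66 and 7.30 for the other 4 pairings. Reads grow with transcript length and with gene copies that cannot be told apart, and transcript lengths were not used here. Levels of different genes are therefore given as shares of reads, not as numbers of molecules.

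A small set of genes carried much of the RNA. The 20 genes with most counts held 17.0, 16.7, 17.6 and 17.8% of gene counts (17.3 ± 0.512%, SD, n = 4), and the top 100 held 29.7 ± 0.329%. To reach 50% of the counts took 696, 696, 708 and 699 genes. Of the top 20, 8 were in the fast skeletal muscle list used below and together held 6.41 ± 0.288% of gene counts. They include actc1b and both TTN genes, whose reads were not assigned to a type of muscle fibre.

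The largest share belonged to a structural RNA and not to a messenger. The signal recognition particle RNA rn7sl1, which guides secreted proteins to the endoplasmic reticulum, held 2.397, 2.14, 2.51 and 2.45% of gene counts, lowest in replicate 2. The transcription elongation regulator rn7sk held 0.912, 0.888, 1.03 and 0.979%. The nuclear long noncoding RNA malat1 held 1.25, 1.23, 1.46 and 1.404%. Each of these 3 RNAs was higher in both replicates 3 and 4 than in replicates 1 and 2. An identifier with no symbol, ENSDARG00000080337, ranked second with 1.52, 1.46, 1.81 and 1.74%, and its nature was not given by the name table.

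The muscle genes followed. The alpha-actin actc1b, the thin filament protein of the sarcomere, held 1.39, 1.39, 1.31 and 1.36% and its 4 libraries lay close together. The 2 genes named TTN, which encode titin, the giant spring that spans the sarcomere, held 1.04, 0.951, 0.901 and 1.21% (ENSDARG00000000563) and 1.02, 0.955, 0.915 and 1.19% (ENSDARG00000028213). Both were highest in replicate 4 and lowest in replicate 3, and their great length favours them in a share of reads. The fast myosin heavy chain myhz1.1 held a mean of 0.660%, the calcium buffers pvalb1 and pvalb2 0.657% and 0.586%, the calcium pump of the sarcoplasmic reticulum atp2a1 0.564%, and the fast myosin light chain MYL11 (ENSDARG00000053254) 0.530%.

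The rest of the top 20 came from respiration, skin, protein synthesis, lipid export and bone matrix. The cytochrome oxidase subunits encoded by the mitochondrial genome, MT-CO1 and MT-CO3, held 0.876, 0.937, 1.13 and 0.984% and 0.396, 0.401, 0.467 and 0.411%, both highest in replicate 3. The keratin krt4 of the surface epidermis held 0.717, 0.709, 0.839 and 0.712%, with replicate 3 above the other 3, which lay together. The elongation factors eef1a1l1 and eef2b, which bring in aminoacyl tRNA and move the ribosome along, had means of 0.644% and 0.399%. The lipoprotein scaffold apobb.1 held 0.601, 0.736, 0.505 and 0.577%, highest in replicate 2. The chaperone HSPA8 (ENSDARG00000068992) averaged 0.415% and the type I collagen chain col1a1a 0.391%. None of the top 20 passed the test for excess spread between libraries that is described further on. Of all genes tested 1.68% passed it, so none is usual for a set of 20.

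**Figure D1:**
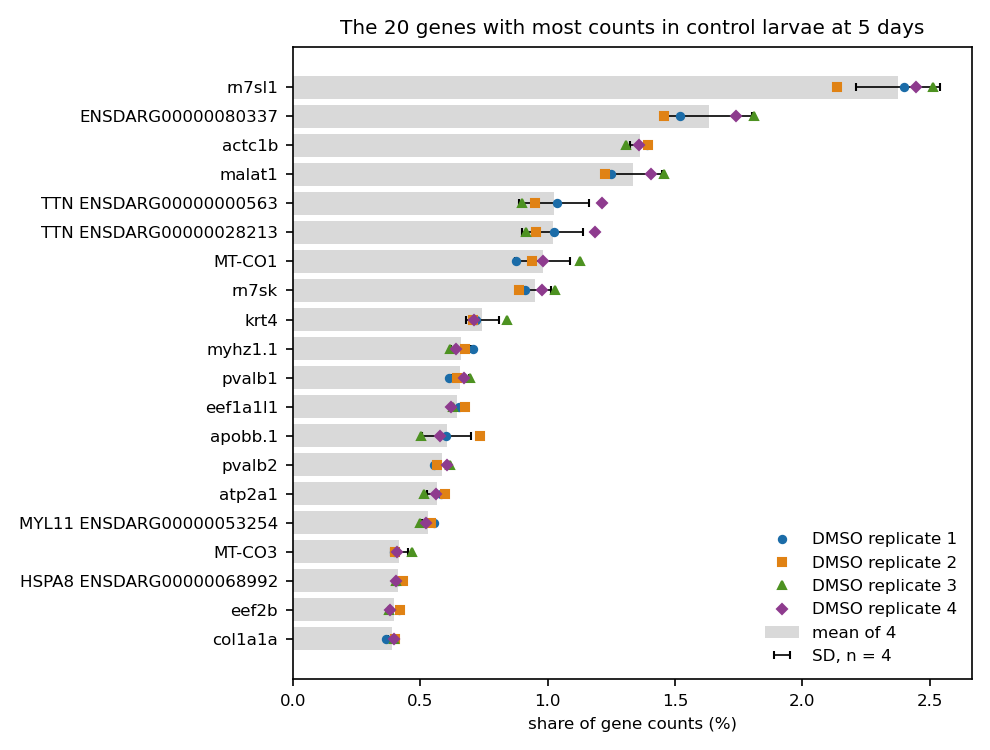
Share of gene counts (%) of the 20 genes with most counts in the 4 DMSO libraries. Bars are means, whiskers the SD (n = 4) and symbols the single libraries. rn7sl1 leads with a mean of 2.37% and col1a1a closes the row at 0.391%.

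The labelled source, a whole animal, was described with 27 lists of tissue markers written from general knowledge. The lists and their members were chosen with earlier results of these data known. All 27 lists had counts, which cannot test the label, since few reads suffice for a count at this depth. Together with 25 lists of families and pathways, and counting each gene once, the lists held 2802 genes and 40.4% of gene counts. A gene may stand in more than 1 list. The shares describe how much of the sequenced RNA each set of markers contributed and are not proportions of cells.

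Muscle dominated. The 48 genes of the fast skeletal muscle list held 10.4, 10.1, 9.67 and 10.6% of gene counts (10.19 ± 0.395%, SD, n = 4). Their 4 leading members, actc1b, both TTN genes and myhz1.1, made up 39.9% of that. Whether the reads of actc1b and TTN came from fast fibres alone was not tested. The 13 slow muscle genes held 0.217, 0.220, 0.219 and 0.219%. Of 12 tested 0 passed the edgeR test for excess spread described further on, beside 1.68% of all genes (0 at an unadjusted p under 0.05, 0 by DESeq2). The slow myosin heavy chain smyhc1 led them with 766, 786, 696 and 782 CPM. The tropomyosins TPM2 and tpm3 followed at means of 404 and 402 CPM, and the slow light chain myl10 at 246 CPM. The 19 heart genes held 0.0496 ± 0.000791%. MYH6, a heavy chain of heart muscle, had 140.0, 132, 129 and 132 CPM and the thick filament regulator MYBPC3 had 81.6, 83.7, 92.3 and 84.6 CPM.

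Skin, skeleton and matrix came next. The 39 epidermis and keratin genes held 1.70, 1.70, 1.97 and 1.71%, with replicate 3 above the other 3. After krt4, the list was led by the basal keratin krt5 with 1758, 1923, 2007 and 1804 CPM, krt1-19e with 1374, 932, 1777 and 1469.9 CPM and krt91 with 1123, 1237, 1213 and 1195 CPM. Of these, krt1-19e had the widest range, lowest in replicate 2 and highest in replicate 3. The 27 cartilage and bone genes held 0.789, 0.810, 0.801 and 0.792%. Their main member was the type II collagen of cartilage, COL2A1 (ENSDARG00000069093), with 3085, 3145, 3157 and 3076 CPM, ahead of COL11A2 with 633, 641, 605 and 616 CPM and of SPARC, a matrix glycoprotein of bone, with 571, 595, 589 and 601 CPM. The whole collagen family of 56 genes held 2.13, 2.21, 2.17 and 2.18% of gene counts, 2.17 ± 0.0323%.

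The digestive organs were strongly represented. The 30 genes of proteins secreted by the liver held 1.19, 1.3995, 1.195 and 1.22%, highest in replicate 2. Besides apobb.1 they were led by the lipoprotein component apoa2 with 1271, 1584, 1499 and 1461 CPM, transferrin tfa, which carries iron, with 1008, 1114, 1321 and 1258 CPM, and the retinol carrier RBP4 with 974, 1145, 1114 and 1052 CPM. The exocrine pancreas, with 32 genes, held 1.32, 1.32, 0.638 and 0.741%, and its libraries fell into a high pair (replicates 1 and 2) and a low pair (replicates 3 and 4). Its leading genes were the trypsinogens prss59.2 and prss1, the chymotrypsinogen ctrb.1 and the elastase CELA1 (ENSDARG00000017314). The 27 intestinal genes held 0.710, 0.743, 0.685 and 0.687%, led by apoa1b with 2548, 2673, 2829 and 2821 CPM, the chitinase chia.2 with 1419.5, 1329.8, 1175 and 1238 CPM and apoa1a with 641, 866, 652 and 681 CPM. The endocrine pancreas list held 0.0364 ± 0.000984%, with insulin (ins) at 8.46, 9.99, 8.84 and 8.57 CPM.

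Among the eye and nerve lists the lens had the largest mean share, though in replicate 3 it was below the neurons and the cones. The 61 lens genes held 0.720, 0.685, 0.390 and 0.636%, lowest in replicate 3. The 17 cone genes held 0.430, 0.433, 0.410 and 0.426% and the 14 rod genes 0.111, 0.110, 0.116 and 0.120%, each with 4 close libraries, so more reads came from the cone list than from the rod list in every library. The cone opsin OPN1SW had 1464, 1505, 1321 and 1432 CPM, ahead of opn1lw2 with 506, 516, 528 and 541 CPM and opn1mw1 with 489, 534, 526 and 535 CPM. The 39 neuronal genes held 0.477, 0.461, 0.447 and 0.464% and the 22 glial and myelin genes 0.182, 0.188, 0.200 and 0.191%. Among the neuronal genes tubb2b, a tubulin of growing neurites, had 355, 352, 316 and 326 CPM, the sodium pump subunit atp1a3a had 319.5, 295, 296 and 317 CPM, and the synaptic fusion protein SNAP25 (ENSDARG00000020609) had 301, 295, 273 and 282 CPM. Glutamine synthetase GLUL (ENSDARG00000099776) led the glial genes with 309, 318, 319.8 and 303 CPM, followed by the glutamate transporter SLC1A2 (ENSDARG00000102453) with 299, 309.6, 312 and 329 CPM.

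Smaller tissues were still countable. Pigment cell genes held 0.0860 ± 0.00541%, red blood cell genes 0.0751 ± 0.00818%, ionocyte genes 0.0707 ± 0.00375%, pronephros genes 0.0656 ± 0.00123%, notochord genes 0.0603 ± 0.00216% and endothelial genes 0.0432 ± 0.00202% (SD, n = 4). The melanosome protein pmela had 164, 168, 172 and 183 CPM, the kidney endocytic receptor LRP2 169.9, 146, 158 and 162 CPM and the vascular receptor kdrl 63.7, 66.4, 72.0 and 69.7 CPM. Otolith and hair cell genes held 0.0386 ± 0.00253%, with the otolith matrix protein stm (starmaker) at 165, 162, 185 and 171 CPM. Leukocyte genes held 0.0224 ± 0.00106%, led by the macrophage growth factor receptor csf1ra with 33.9, 33.2, 35.1 and 33.0 CPM, whose 4 libraries did not differ beyond counting noise.

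At the low end, 5 thyroid genes held 0.00263 ± 0.000432%, 12 pituitary hormone genes 0.00188 ± 0.000291%, 3 swim bladder genes 0.00110 ± 3.95e-05% and 12 germ cell genes 0.00109 ± 0.000138%. Growth hormone (gh1) had 7.88, 12.1, 8.98 and 9.41 CPM and the germ line helicase DDX4 2.77, 1.17, 1.01 and 1.04 CPM. The 8 vitellogenin genes, which females of breeding age transcribe for egg yolk, summed to 40 counts over all 4 libraries, and 4 of the 8 were at 0 in each. The 14 globin genes held 0.0240 ± 0.00517%, with hbae3 at 154, 123, 131 and 189 CPM. Globin genes lie in clusters of near-identical copies, and reads that align to several copies are absent from these counts, so the globin share is uncertain.

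**Figure D2:**
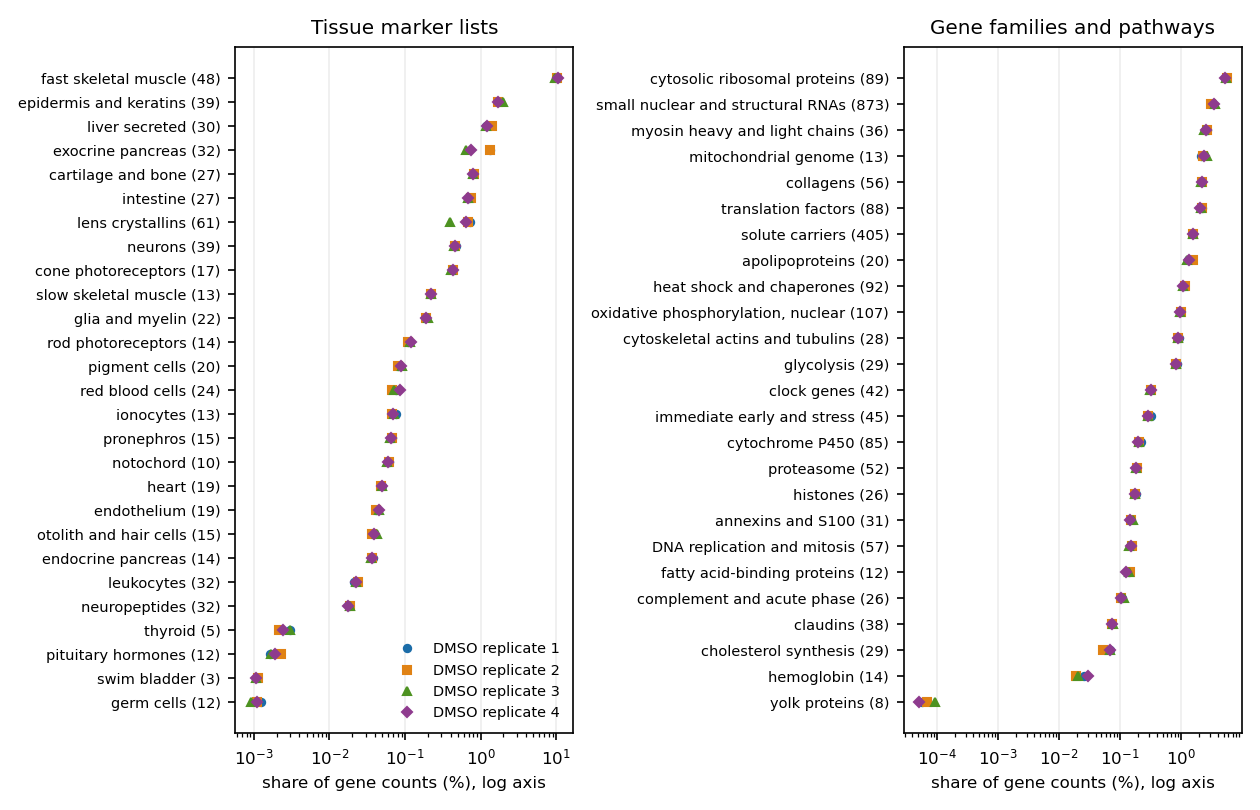
Share of gene counts (%, log axis) of 27 tissue marker lists on the left and 25 families and pathways on the right, with the number of genes in brackets and 1 symbol per DMSO library. Fast skeletal muscle leads with 10.19 ± 0.395%, and the exocrine pancreas and lens lists show the widest gaps between libraries among lists over 0.1%.

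Families shared by most cells were read next. The 89 cytosolic ribosomal protein genes held 5.34, 5.59, 5.53 and 5.31% of gene counts, and RPLP0, RPL3, RPS2 and RPL4 led them at means of 2048, 1838, 1836 and 1550.1 CPM. The 13 protein genes of the mitochondrial genome held 2.16, 2.26, 2.70 and 2.36%, and all 13 were highest in replicate 3. By contrast the 107 nuclear genes of oxidative phosphorylation held 0.969, 0.991, 0.961 and 0.962%, with ATP5F1B, a catalytic subunit of ATP synthase, at 1169, 1205, 1096 and 1136 CPM. Translation factors held 2.15 ± 0.0681%, heat shock proteins and chaperones 1.104 ± 0.0362%, cytoskeletal actins and tubulins 0.909 ± 0.0186%, glycolysis 0.838 ± 0.0189% and histones 0.178 ± 0.00445%. Messengers of replication-dependent histones lack a poly(A) tail, which this total RNA preparation does not need.

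The 405 solute carrier genes held 1.56, 1.56, 1.57 and 1.57%, led by the mitochondrial ADP/ATP carrier SLC25A5 with 2602, 2589, 2572 and 2563 CPM. The 42 clock genes held 0.319, 0.325, 0.316 and 0.326%, led by cry3a with 479, 496, 521 and 529 CPM and BHLHE40, a repressor of the clock, with 232, 252, 229 and 230.3 CPM. The ranges of the 4 libraries were narrow in both lists. The 85 cytochrome P450 genes held 0.225, 0.203, 0.207 and 0.202%, of which cyp3a65, a drug-metabolising member, had 775, 632, 593 and 584 CPM, highest in replicate 1. Structural RNAs other than malat1 held 3.41, 3.11, 3.64 and 3.52% over 873 genes, of which 530 had no count, and rn7sl1 and rn7sk made up most of it (98.8% in the top 4).

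Which genes vary between control larvae was asked with edgeR's goodness-of-fit test, which takes each gene's spread over the 4 libraries against the spread of other genes at its level. The spread is given as the biological coefficient of variation (BCV), the relative SD left after counting noise, where 0 means none is left. The libraries were close. Of 20365 genes tested 343 (1.68%) were more variable than the trend at a Benjamini-Hochberg adjusted p under 0.05, and 1127 at an unadjusted p under 0.05. The median BCV was 0.0303 over all genes tested and 0.267 over those called, and 39.9% of genes tested were at or under counting noise.

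**Figure D3:**
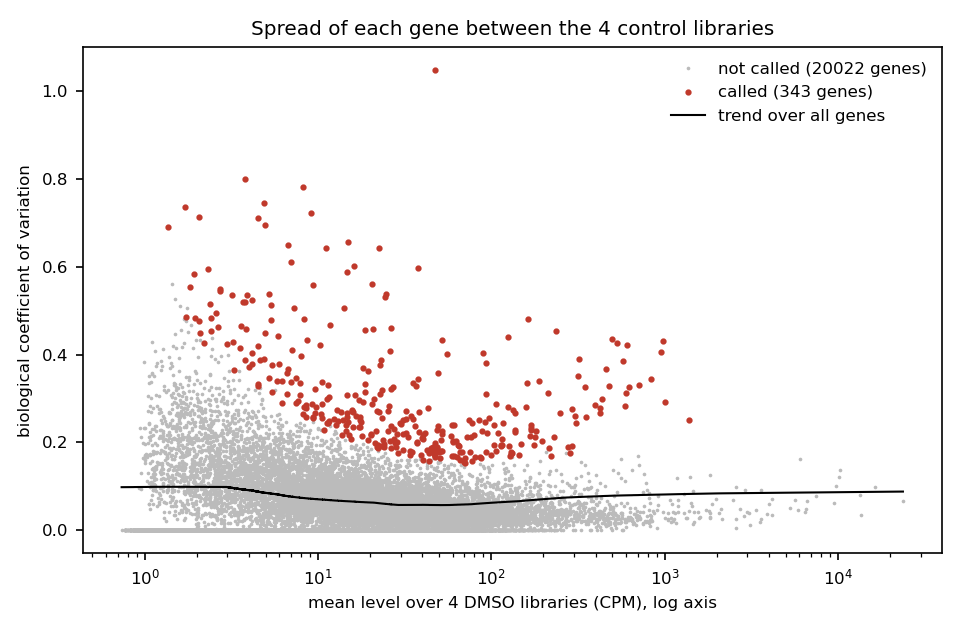
Biological coefficient of variation of 20365 genes against their mean level (CPM, log axis) over the 4 DMSO libraries. The line is the trend, red points are the 343 genes called more variable than it, whose BCV runs from 0.153 to 1.05, and many genes lie at 0.

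The called genes did not spread evenly over the libraries. The highest library was replicate 1 for 134, replicate 2 for 106, replicate 3 for 34 and replicate 4 for 69 of them. The lowest was replicate 3 for 131, of which 20 were in the exocrine pancreas list and 33 in the lens list. Over all genes tested, each library was highest for 24.1 to 25.5%. Of the called genes 126 (36.7%) had replicates 1 and 2 both above replicates 3 and 4, against 18.5% of all genes tested. Of the 343, 123 were in at least 1 list.

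The digestive enzymes of the pancreas varied together. Of 25 exocrine pancreas genes tested, 23 were called, beside 1.68% of all genes, and all 23 had replicates 1 and 2 above replicates 3 and 4. Their list had a median BCV of 0.366, against 0.0303 over all genes. The median ratio of replicates 1 and 2 over replicates 3 and 4 was 1.83 in the list and 0.998 over all genes tested. The trypsinogen prss1 had 1298, 1279.7, 565 and 683 CPM (BCV 0.405, adjusted p = 2.6e-14). The chymotrypsinogen ctrb.1 had 1360.3, 1318, 551 and 679.6 CPM (BCV 0.431, adjusted p = 1.2e-16). A second trypsinogen, prss59.2, had 1250.3, 1266, 700.0 and 806 CPM, and CELA1 (ENSDARG00000017314) had 1045, 1117, 538 and 643 CPM. In each of the 4 genes the lower value of the high pair was above the higher value of the low pair.

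Further enzymes of the list did the same. The carboxypeptidase CPB1 had 828, 826, 351 and 424 CPM and the amylase amy2a, which splits starch, had 805, 717, 360.0 and 411 CPM; both were named after their values were seen. In the list for the hormone-producing cells of the same organ 0 of 11 genes were called by edgeR (0 at an unadjusted p under 0.05, 0 by DESeq2's dispersion outliers), beside 1.68% of all genes, and the difference between the lists was not tested. Several other measures had the same order of pairs as the enzymes but in the opposite direction. Lower in replicates 1 and 2 were the reads in no gene feature, the mitochondrial share and the share of structural RNAs. The reads listed as not unique also were, at 27.5, 26.9, 28.8 and 33.5% of all entries. With the share of reads in no gene feature as a covariate, 17 of 25 were called. Leaving out any 1 library gave 21 or 22 calls. Whether any of these measures has a part in the result was not tested further. In RNA from whole animals, fewer cells of a type and less RNA per cell cannot be told apart.

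The lens set replicate 3 apart. Of 46 lens genes tested 33 were called, beside 1.68% of all genes, and all 33 were lowest in replicate 3. Of the 46, 44 were lowest there, against 25.1% of all genes tested. The order of pairs seen in the pancreas list was also common here. Replicates 1 and 2 were both above replicates 3 and 4 in 27 of the 33 and in 35 of the 46, against 18.5% of all genes tested. Their level in replicate 3 over the mean of the other libraries had a median of 0.589 across the list, against 0.998 over all genes. The beta-crystallin crybb1l1, a structural protein of the lens fibre, had 732, 667, 350.0 and 612 CPM (BCV 0.284, adjusted p = 1.4e-07). CRYBB1 had 533, 509, 247 and 454 CPM (adjusted p = 3.4e-09), cryba1b 517, 488, 262 and 434 CPM and crybb1l2 477, 461, 230.3 and 416 CPM. In each of these 4 genes replicate 3 was the lowest library.

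The photoreceptor lists are short, so with 1.68% of all genes called nothing particular to them is read from their counts. The difference between lists was not tested. Of 15 cone genes 1 was called, and of 13 rod genes 0 were called (0 at an unadjusted p under 0.05, 0 by DESeq2's dispersion outliers). Without replicate 3, 0 of the lens genes were called by the same edgeR test (3 at an unadjusted p under 0.05). Leaving out any other library gave 33 calls. The number of lens genes called with the share of reads in no gene feature as a covariate was 34. Of the called lens genes 28 of 33 were highest in replicate 1.

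**Figure D4:**
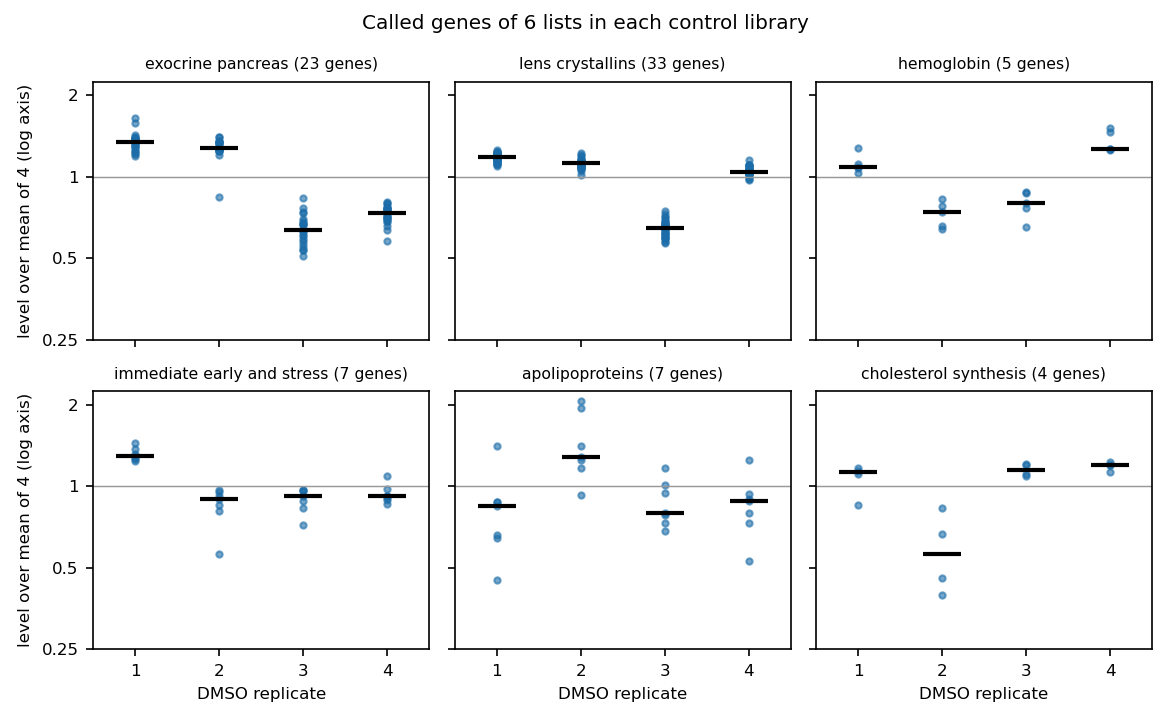
Level of each called gene over its own mean of the 4 libraries (log axis) in 6 lists, by DMSO replicate, with the median as a bar. The 23 pancreas genes are higher in replicates 1 and 2 than in replicates 3 and 4, and the 33 lens genes are lowest in replicate 3. The 7 immediate early and stress genes are high in replicate 1, and the 4 cholesterol genes lowest in replicate 2.

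Of 19 apolipoprotein genes tested 7 were called, beside 1.68% of all genes, and 5 of these were highest in replicate 2. The scaffold gene APOB had 371, 596, 331 and 396 CPM (BCV 0.278, adjusted p = 3.8e-05), and its relative apobb.2 had 6.71, 29.3, 11.9 and 11.9 CPM (BCV 0.656, adjusted p = 4.1e-24). The more abundant apobb.1 had 6047, 7375, 5004 and 5772 CPM, again highest in replicate 2, with a BCV of 0.163 that did not pass the test. The small lipoprotein component apoc1 had 257, 378, 279 and 263 CPM (adjusted p = 0.043). The other 2 were highest elsewhere. APOD (ENSDARG00000060350) was highest in replicate 1, with 446, 369.8, 217 and 231 CPM (adjusted p = 6.6e-11), and apoa4b.3 in replicate 4, with 14.4, 20.8, 26.3 and 28.2 CPM. APOB, APOD, apoc1 and apoa4b.3 were named after their values were seen. Without replicate 2, 3 apolipoprotein genes were called, and without replicate 1, 4.

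Some genes of cholesterol synthesis were lowest in replicate 2. This list was added after the first of its values had been seen. Of 28 genes tested 4 were called, beside 1.68% of all genes, all 4 lowest in replicate 2 and highest in replicate 4. Replicate 2 was the lowest library for 17 of the 28, against 25.4% of all genes tested, and another library was lowest for the rest. CYP51A1, which removes a methyl group from lanosterol, had 56.1, 22.6, 58.7 and 59.14 CPM (BCV 0.359, adjusted p = 9.7e-21). MSMO1, which acts on the methyl groups of a later intermediate, had 32.0, 19.1, 31.5 and 32.4 CPM. Both genes lay within a narrow range in the other libraries. In some uncalled genes of the list replicate 2 was lowest by less. IDI1 had 48.9, 43.5, 48.4 and 48.4 CPM, HMGCS1 45.02, 40.1, 44.8 and 42.0 CPM and the transcription factor srebf2 74.7, 69.2, 74.5 and 77.8 CPM. Those 3 were not called. IDI1, HMGCS1 and MSMO1 were named after their values were seen. Without replicate 2, 0 of 29 tested were called by edgeR (3 at an unadjusted p under 0.05).

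Immediate early genes are transcribed within minutes of a stimulus. The list holds such genes together with stress genes. Of its 42 genes tested 7 were called, beside 1.68% of all genes, and all 7 were highest in replicate 1. Of the 42, 22 were highest there, against 25.2% of all genes tested. The AP-1 subunit FOSB had 25.6, 10.5, 17.9 and 20.4 CPM (BCV 0.333, adjusted p = 5.7e-08), and the stress factor ATF3 had 23.8, 16.0, 11.8 and 14.2 CPM (adjusted p = 6.2e-05). The zinc finger factor egr1 had 164, 111, 126 and 120.0 CPM and CEBPB 94.9, 68.9, 59.9 and 65.2 CPM. A further AP-1 subunit outside the list, FOSL1, had 37.9, 16.2, 12.4 and 16.0 CPM (BCV 0.562, adjusted p = 2.0e-20). The abundant members of the list varied less. TXNIP (ENSDARG00000036107) had 438, 417, 434 and 454 CPM, CEBPD 206, 192, 194 and 192 CPM and DUSP1 171, 158, 154 and 172 CPM, and none of these passed the test. FOSB, ATF3, egr1 and CEBPB were named after their values were seen. Without replicate 1, 1 of the list was called, and without replicate 2, 4.

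The red cell genes went by another order. Of 5 globin genes tested all 5 were called, beside 1.68% of all genes, 4 of them highest in replicate 4 and 4 lowest in replicate 2. The alpha-type globin hbae3 had 154, 123, 131 and 189 CPM (BCV 0.197, adjusted p = 0.0041), and hbae1.3 had 23.9, 12.3, 15.0 and 23.7 CPM (adjusted p = 1.3e-06). The red cell anion exchanger SLC4A1 (ENSDARG00000012881) had 29.4, 18.5, 20.3 and 33.0 CPM (adjusted p = 7.1e-06), and alas2, which starts heme synthesis in red cells, had 14.4, 14.5, 17.8 and 25.9 CPM. The ammonia channel gene RHAG of the same list, at 252, 252, 265 and 274 CPM, was not called. Without replicate 4, 1 globin gene and 2 genes of the red cell list were called, against 5 and 7 with it, and without replicate 2, 3 globin genes. SLC4A1 and alas2 were named after their values were seen. Near-identical globin copies make the single globin values uncertain.

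The skin, gut, P450, nuclear RNA and replication lists held a few variable genes each, beside 1.68% of all genes called. Of 37 epidermal genes 4 were called, all highest in replicate 3, among them krt1-19e (BCV 0.251, adjusted p = 1.7e-04). Of 27 intestinal genes 8 were called, and 5 of these had replicates 1 and 2 both above replicates 3 and 4. Of all 27, 15 had that order, against 18.5% of all genes tested. The brush border peptidase ANPEP (ENSDARG00000103878), at 158, 121, 106 and 131 CPM, was called without that order. So was apoa4a, at 2.99, 9.37, 3.31 and 2.402 CPM. Of 69 cytochrome P450 genes 8 were called, among them CYP7A1, the rate-limiting enzyme of bile acid synthesis, with 84.2, 61.9, 60.7 and 58.4 CPM, highest in replicate 1. Of 28 structural RNAs tested 8 were called and 7 of these were lowest in replicate 2, such as the RNase P RNA rpph1 with 149, 89.7, 156 and 153 CPM (BCV 0.229). Of 54 replication and mitosis genes 3 were called. The helicase subunits MCM3 and MCM5 had 35.2, 53.1, 36.0 and 36.7 CPM and 45.6, 62.7, 41.9 and 45.5 CPM, both highest in replicate 2. Without replicate 2 the calls fell to 2 epidermal genes, 4 intestinal genes, 3 P450 genes, 5 structural RNAs and 1 replication gene. Without replicate 1 there were 4 intestinal calls, and without replicate 4 there were 5 intestinal and 4 P450 calls. P450 calls numbered 1 under Holm adjustment and 3 with the share of reads in no gene feature as a covariate. ANPEP, apoa4a, CYP7A1, rpph1, MCM3 and MCM5 were named after their values were seen.

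With 1.68% of all genes called, few calls or none are usual for a list of this size. Several lists had none by the edgeR test, and nothing particular to them is read from it: 0 of 88 ribosomal protein genes, 0 of 105 nuclear oxidative phosphorylation genes, 0 of 84 translation factors, 0 of 47 proteasome genes, 0 of 41 clock genes and 0 of 39 neuronal genes. Their median BCVs were 0.0266, 0.0198, 0.0390, 0.0291, 0.0405 and 0.0396, on either side of the 0.0303 of all genes. At an unadjusted p under 0.05 the counts were 0, 0, 1, 0, 1 and 0, and by DESeq2's dispersion outliers 0, 0, 0, 0, 0 and 0. The clock transcript cry3a stayed between 479 and 529 CPM. Of 48 fast muscle genes 1 was called and of 56 collagen genes 1, shares near the 1.68% of all genes. The 13 mitochondrial genes had a median BCV of 0.102 and 0 were called (2 at an unadjusted p under 0.05, 0 by DESeq2), and all were highest in the same library.

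Single genes with the widest spread were mostly without a descriptive name. The widest at a mean of at least 5 CPM was the clone-named si:dkey-14d8.6 (ENSDARG00000045835), with 121, 16.7, 34.3 and 17.4 CPM and a BCV of 1.05 (adjusted p = 1.1e-119). Its near namesake si:dkey-14d8.7 (ENSDARG00000045834) had 19.0, 5.86, 6.08 and 5.45 CPM. Both were highest in replicate 1, and for si:dkey-14d8.6 replicate 3 also lay above replicates 2 and 4. The glycolytic enzyme gene GPI (ENSDARG00000103826) had 10.22, 12.1, 30.6 and 11.3 CPM (BCV 0.602), high in replicate 3 alone. The apoptosis-related bnip4 had 11.7, 6.55, 14.8 and 23.8 CPM, the snoRNA SNORA23 14.3, 5.38, 17.96 and 9.15 CPM, the RNase P RNA ENSDARG00000085497 25.5, 6.20, 29.2 and 36.8 CPM and enam 18.02, 35.0, 14.4 and 15.6 CPM. Replicate 2 was the lowest library for the first 3 of these and the highest for enam. Of the 25 genes with the largest BCV, which ran from 0.459 to 1.05, 9 no longer passed the test when 1 library was left out. Without replicate 1 the BCV was 0 for si:dkey-14d8.7, 0.130 for FOSL1 and 0.235 for zgc:153911 (ENSDARG00000002509). Without replicate 2 it was 0.290 for ENSDARG00000101990, 0.182 for the RNase P RNA, 0.0739 for si:ch211-251f6.6 (ENSDARG00000053448) and 0.0936 for enam. It was 0.0343 for GPI without replicate 3 and 0.204 for ENSDARG00000080300 without replicate 4.

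At the other end, 166 of the 1482 genes with a mean of at least 100 CPM were at or under counting noise. The 10 steadiest included foxo3b, a forkhead transcription factor, with 199.6, 198, 199 and 199 CPM, and the cell surface protein BSG with 304, 304, 305 and 306 CPM. The amyloid precursor protein gene APP had 333, 329, 329.9 and 330.0 CPM, the basement membrane collagen col4a6 407, 411, 408 and 411 CPM and the laminin chain lama4 122, 122, 122 and 123 CPM. The actin regulator pfn2b had 377, 379, 376 and 373 CPM, the casein kinase CSNK1A1 229.6, 227, 229 and 230.0 CPM, the kinase ROCK1 102, 102, 102 and 104 CPM and WDR26 (ENSDARG00000006812) 108, 109.5, 109 and 109.6 CPM. All 10 had a BCV of 0, so their spread was at or under counting noise. They were picked for this, and among the 166 for the smallest relative SD, so it is a description. Among common reference genes actb1 had 1494, 1473, 1435 and 1462 CPM (BCV 0.0152) and GAPDH 1664, 1564, 1634 and 1568 CPM (BCV 0.0302). The actin actb2 had a mean of 3356 CPM and a BCV of 0.0471. The median BCV of genes with a mean of at least 100 CPM was 0.0380. Any such gene would vary more than 10 picked for a small spread, so nothing is read from that comparison.

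The same test was run within each exposed group on its own, to ask whether genes that vary between control libraries also vary elsewhere. It called 343 of 20212 genes (1.7%) at 0.1 µM, 306 of 19940 (1.53%) at 1 µM and 299 of 19953 (1.5%) at 10 µM. The calls shared with DMSO were 104 at 0.1 µM (30.3% of the DMSO calls and 30.3% of that group's), 130 at 1 µM (37.9% and 42.5%) and 86 at 10 µM (25.1% and 28.8%). Of the 343 DMSO calls 216 (63.0%) were called in at least 1 exposed group and 18 in all 3. Leaving out the library of 1 number in every group moved the 216 to 149, 108, 107 and 151 (without replicates 1, 2, 3 and 4). Among the 18 were FOSL1, the amylase amy2al2 with 229.7, 255, 126 and 141 CPM, the lens filament gene BFSP1 with 59.18, 54.0, 32.1 and 51.7 CPM, apoa4b.3, the pentraxin apcs with 19.5, 9.72, 21.7 and 18.1 CPM, SNORA23 and the ribosome biogenesis factor NSA2 with 168, 254, 183 and 176 CPM, picked after their values were seen. Among exocrine pancreas genes 23 were called in DMSO, 8 at 0.1 µM, 21 at 1 µM and 3 at 10 µM, and among lens genes 33, 9, 33 and 3. Differences between these counts were not tested.

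Duplicate genes were read through 2003 pairs, 1539 of them 2 identifiers under 1 symbol and 464 an a and a b form of the same name. The pairs rest on names alone. Whether both members are separate genes, and whether they arose in the teleost genome duplication, was not tested. The ratio of the copies is one of counts, with no correction for length, and reads that fit both copies are in neither. The 1973 pairs with at least 40 counts over both copies and all libraries were tested. In 1784 (90.4%) the counts of the copies differed by limma's test of the log2 ratio (adjusted p under 0.05), and in 633 (32.1%) the ratio was also at least 4. The same copy led in all 4 libraries for 1822 pairs. The leading copy held a median of 70.9% of its pair, and in 823 pairs (41.7%) the ratio was under 2.

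**Figure D5:**
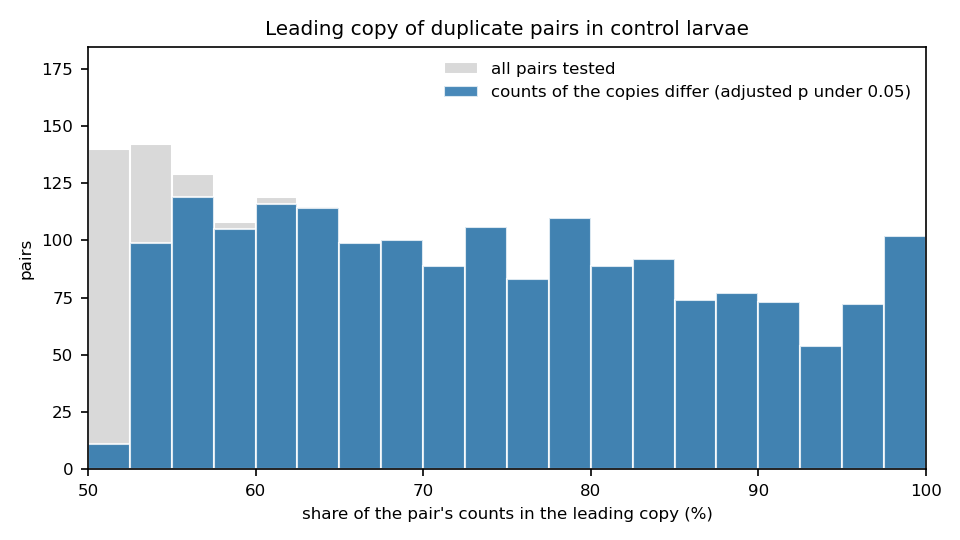
Number of duplicate pairs by the share of the leading copy (%), in steps of 2.5 percentage points. The share was computed from the mean over libraries of the log2 ratio of the copies, with 0.5 added to each count. Grey bars are all 1973 pairs tested and blue bars the 1784 in which the copies differed. The pairs run without a gap from 50% to 100%, with 102 in the last step.

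In the widest splits one copy had few or no counted reads. Whether that copy is silent was not tested, since reads that fit both copies are in neither. Of the 12 pairs with the largest ratio, 7 had 0 counts for the other copy in all 4 libraries, and the fold is then a lower bound against a floor of 3 counts over the group. For rsf1b.1, named after a chromatin remodelling factor, the leading copy had 975, 920, 993 and 1066 counts, so its counts were at least 1318-fold higher. The bound was 908-fold for mtmr3, a phosphoinositide phosphatase, and 635-fold for VPS50, a subunit of an endosomal tethering complex. SOCS3, an inhibitor of cytokine signalling, had 334, 390, 414 and 414 counts on its leading copy and a bound of 517-fold. For prdm16 and ecm1 the bounds were 430.3-fold and 423-fold, and for the clone-named pair si:ch211-285f17.1 (ENSDARG00000059333 leading) 869-fold.

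The other 5 had a few reads on the minor copy. The elastase CELA1 had 14328, 16203, 7964 and 9913 counts on ENSDARG00000017314 and 25, 15, 8 and 11 on ENSDARG00000043175, a log2 ratio of 9.70 (SE 0.17). G6PC1, the last step of glucose release, had 3258, 3836, 3918 and 4400 and 2, 5, 8 and 6 counts, a log2 ratio of 9.51 (SE 0.29). The modifier gene sumo2 had 671, 747, 709 and 700 and 0, 0, 2 and 0, perm1, a muscle regulator of mitochondria, 803, 635, 737 and 876 and 0, 1, 0 and 1, and PLAC8 848, 931, 935 and 878 and 1, 0, 4 and 0. The leading copy was the same in every library for all 5, which picking the widest ratios all but fixes.

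At the even end, the 2 TTN genes had 143248, 138280, 132171 and 187242 counts (ENSDARG00000000563) and 141207, 138835, 134220 and 183077 (ENSDARG00000028213), a log2 ratio of 0.01 (SE 0.029). Their order changed between libraries. KMT2C, a histone methyltransferase, had 2176, 2249, 2221 and 2577 and 2142, 2228, 2256 and 2587 counts (log2 ratio 0.0020, SE 0.038). SMARCD3 of the BAF chromatin complex, the small nuclear ribonucleoprotein SNU13, the kinesin partner KIFAP3 and the clotting starter f3 completed the 6 nearest pairs, with leading copies at 50.01 to 50.1% of the pair. None of the 6 passed the test, and the SE of their log2 ratios lay between 0.029 and 0.093. They were picked for the smallest ratios, so the lack of a call follows from the choice.

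Inside the lists, the copies differed with a ratio of at least 4 in 3 of 8 fast muscle pairs, 8 of 11 collagen pairs, 1 of 5 neuronal pairs, 4 of 4 fatty acid-binding pairs and 2 of 11 chaperone pairs, beside 32.1% of all pairs. The pairs named here were picked after their values were seen. In muscle the troponin T gene TNNT3 had 95.6, 95.7, 96.1 and 95.6% of the pair on ENSDARG00000068457, and the light chain MYL1 87.9, 89.2, 88.9 and 89.2% on ENSDARG00000017441. Among collagens COL10A1, of hypertrophic cartilage, gave 99.2, 99.3, 99.4 and 99.4% to ENSDARG00000054753 and COL2A1 83.6, 83.1, 83.1 and 82.7% to ENSDARG00000069093, while COL12A1 was split with 49.5, 52.1, 50.6 and 50.9% (adjusted p = 0.3). In neurons GAD1, which makes GABA, had 96.0, 95.4, 95.9 and 96.5% on ENSDARG00000027419. The fatty acid-binding pairs fabp10 of the liver and FABP7 of radial glia gave 99.7, 99.6, 99.5 and 99.7% and 98.7, 98.1, 98.3 and 99.0% to their leading copies. The smooth muscle myosin MYH11 gave 99.1, 99.3, 99.1 and 99.3% and the chaperone HSPA8 99.8, 99.8, 99.8 and 99.8%.

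In the clock list 3 of 6 pairs and in glycolysis 5 of 8 pairs had a called ratio of at least 4, beside 32.1% of all pairs. Here too the named pairs were picked after their values were seen. The leading copies held 90.7, 89.6, 90.3 and 89.7% for cry3, 83.6, 83.8, 84.2 and 84.5% for CRY1 and 86.7, 84.1, 86.2 and 86.4% for PER1, but 52.8, 49.7, 49.5 and 48.5% for BMAL1 (adjusted p = 0.89), whose copies were not told apart. TPI1 of glycolysis gave 96.9, 96.2, 97.0 and 96.7% to ENSDARG00000040988 and ALDOA 51.9, 53.3, 52.2 and 54.2% to ENSDARG00000011665. GPI gave 94.3, 93.5, 84.5 and 93.9% to ENSDARG00000012987, with the lower share in replicate 3, where its other copy was high. RRM2, a subunit of ribonucleotide reductase, gave 78.4, 99.5, 100 and 100% to ENSDARG00000020711, with nearly all reads of its other copy in replicate 1.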

How the data were processed

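Total RNA of whole larvae was sequenced after ribosomal RNA removal with a strand-specific kit (TruSeq with Ribo-Zero Gold), per the labels' protocols. The deposited files hold whole-number read counts for 32105 Ensembl genes and 5 summary lines per library, made by the authors with HTSeq. Trimmomatic, HTSeq, edgeR and the build GRCz10 are named in the submitters' processing notes, and the file names state reverse-strand union counting. For the aligner, the annotation release and the versions, the answer is not given in the sources used here. The summary lines stayed out of library sizes. Reads in no feature were 33.2 ± 1.92% of uniquely aligned reads and reads listed as not unique 29.2 ± 2.99% of all entries (SD, n = 4).

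The 4 DMSO libraries formed the only group, taken from the sample titles. Identifiers were matched to symbols through a table of gene names, which named 26269, of which 4144 share a symbol. Many symbols have the form of the human gene. CPM values use TMM factors (0.994 to 1.009). Genes were filtered with filterByExpr, and spread was tested with the goodness-of-fit test of edgeR 4.0.16 in R 4.3.3 against the trended dispersion across 20365 genes, checked on simulated counts. Pairs were tested with limma 3.58.1 (trend, robust) on log2(count + 0.5) ratios. These were planned per coding length, but no lengths were used here, so pair tests rest on counts. DESeq2 1.42.0 served as an alternative. Adjusted p under 0.05 (Benjamini-Hochberg) was the threshold.

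Named genes were the 20 with most counts, up to 4 members per list by mean CPM, the 12 widest and 6 nearest pairs with at least 20 CPM, the 25 largest BCVs among called genes with at least 5 CPM and the 10 smallest with at least 100 CPM, and not all are printed. Results for a few named genes are not reported here. Others are said to be named after their values were seen. Gene lists (52, of 1171 names or patterns, 376 unmatched) and members were chosen with earlier results of these data known.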

Additional observations from a re-analysis of the deposited data

Results flagged for a closer look

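Of 131 values with 4 libraries (list shares, depth measures, named genes and pairs), 11 had 1 library far from the other 3 by Dixon's test at its 95% critical value. Chance gives such a gap in about 1 in 20 groups of 4 values, but that rate does not apply to the 25 genes chosen for a large BCV, which hold 5 of the 11. The other flags were about as many as that rate gives. Among list shares, liver secreted genes stood at 1.3995% in replicate 2, against 1.19 to 1.22% in the others. Epidermis and keratin genes stood at 1.97% in replicate 3, against 1.70 to 1.71%, and its largest gene krt4 at 8314 CPM, against 7103 to 7219.6 CPM. Complement and acute phase genes stood at 0.116% in replicate 3, against 0.106 to 0.107%. Of these 0 of 22 were called by edgeR, beside 1.68% of all genes (6 at an unadjusted p under 0.05, 0 by DESeq2's dispersion outliers). Cholesterol synthesis genes stood at 0.0528% in replicate 2, against 0.0679 to 0.0687%.

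Among single genes, si:dkey-14d8.6 (ENSDARG00000045835) reached 121 CPM, si:dkey-14d8.7 (ENSDARG00000045834) 19.0 CPM and FOSL1 37.9 CPM in replicate 1, where the other libraries held at most 34.3, 6.08 and 16.2 CPM. GPI (ENSDARG00000103826) reached 30.6 CPM in replicate 3, against at most 12.1 CPM elsewhere, and ENSDARG00000080300 17.7 CPM in replicate 4, against at most 6.34 CPM. The leading copy of sumo2 held 99.7% of its pair in replicate 3 and all of it elsewhere, a gap that rests on 2 reads.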

How the results depend on the processing

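Of 343 genes called more variable than the trend, Holm adjustment left 162. Leaving out a library gave 221 (replicate 2, 208 shared with the main calls) to 268 (replicate 4, 255 shared). DESeq2's size factors gave 342, no filter 363 (327 shared with the main calls), the share of reads in no gene feature as a covariate 236 (222 shared) and DESeq2's dispersion outliers 247 (235 shared). The overlap with exposed groups was 216 genes, 89 under Holm adjustment and 107 to 151 without a library, where each group lost the library of that number. Pairs whose copies differed numbered 1784, 1028 against a minimum of 2-fold and 1734 to 1744 without a library. Genes that make up 50% of counts numbered 699.75 on average, and 758.75 without the mitochondrial genome. The last denominator also moved 12 of 52 list shares by more than their SD, each upward. Among the lists with the clearest patterns, the number of called genes moved by over 1.5 times in the following. Lens crystallins had 0 without replicate 3 and otherwise 33 or more, outside Holm adjustment with 28. Intestine had 2 to 8 over all settings, and apolipoproteins 3 without replicate 2 and 4 without replicate 1. Immediate early and stress genes had 2 under Holm adjustment, 1 without replicate 1 and 4 without replicate 2. Hemoglobin had 2 under Holm adjustment and 3 with the covariate, and cholesterol synthesis 0 without replicate 2. These list counts were added after the data were seen. All 72 alternative log2 ratios of named pairs kept their direction and side of the threshold, and 166 of 175 alternative BCVs of named genes kept their side, the other 9 being those named above. The causes were not tested. Alternatives that needed coding length or protein identity were not run. No paired analysis was possible because a single group was analysed and no groups were compared. Counts per library limit the low genes: a library with 0 counts allows up to 3, and reads common to near-identical copies are not counted. Intervals and floors cover counting error only.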

Other observations

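Several variable genes belong to none of the lists. Some that were noticed after their values were seen follow the order of a list. The protein folding enzyme pdia2 had 141, 96.7, 61.6 and 71.9 CPM and the zymogen granule protein SYCN (ENSDARG00000103687) 108, 103, 72.8 and 69.1 CPM, with replicates 1 and 2 above replicates 3 and 4 as in the exocrine pancreas list. The lens-type crystallin crybgx had 119, 108, 61.6 and 99.1 CPM and LGSN, a lens glutamine synthetase relative, 28.0, 23.6, 13.6 and 21.9 CPM, both lowest in replicate 3. The desaturase FADS3 had 27.9, 13.9, 32.1 and 31.7 CPM, lowest in replicate 2 as in the cholesterol synthesis list. The cholesterol exporter abca1b had 157, 241, 155 and 168 CPM and the transferrin receptor tfr1b 89.2, 178, 138 and 146 CPM, both highest in replicate 2.

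Groups of genes with no call could still share a high library. Of 15 otolith and hair cell genes 13 were highest in replicate 3, as were 15 of 22 glial and myelin genes and 13 of 13 mitochondrial genes, against 25.5% of all genes tested. Of 39 neuronal genes 23 were highest in replicate 1, against 25.2% of all genes tested. Genes of 1 library share its composition, so these counts are descriptions without a test.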
